A study of Mus musculus with 8 samples.

Results

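The genes described here are *Lin28a*, *Lin28b*, *Hmga1*, *Hmga2*, *Igf2bp1*, *Igf2bp2* and *Igf2bp3*, which were chosen by symbol from the mouse NCBIM37 annotation. The choice was made with earlier results of these data known. The study that reported the data had listed *Hmga2* among transcription factors that changed significantly in supporting cells between the ages compared here. All 7 were found among the 36536 genes counted in each library. They belong to a heterochronic circuit, a set of genes that keeps cells in an early developmental state and is silenced as tissues mature. Lin28 proteins are RNA-binding proteins that block the maturation of let-7 microRNAs. Hmga proteins are small chromatin proteins that bind AT-rich DNA, and Igf2bp proteins bind and stabilize mRNAs. Mature let-7 represses the mRNAs of *Lin28*, *Hmga2* and the *Igf2bp* genes, and in the cochlea Lin28b and let-7 are known for their part in the timing of cell cycle exit and differentiation of hair cell and supporting cell progenitors.

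RNA-seq compared sorted GFP+ and GFP- cochlear cells of mice at postnatal days P1 and P6, with 2 replicate libraries in each of 4 groups and 8 libraries in all. All animals carried the LFng-GFP BAC transgene (B6;FVB-Tg(Lfng-EGFP)HM340Gsat/Mmucd), whose GFP follows the Notch modulator gene *Lfng*, and the cells were taken straight from the animal with neither culture nor drug treatment. The GFP+ groups were the brightest GFP+ cells, which hold border, inner phalangeal, outer pillar and Deiters' cells, and the GFP- groups were a mixture of the other cells of the dissected cochlea. Each library pooled the cells of many cochleas, and nothing in the labels says which animals entered which library, so p-values measure only the spread between these samples, which may be technical. The libraries held 17769024 to 67695039 counts on genes.

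The labelled cell types were checked against marker genes. The summed level of 8 supporting cell markers was 8977 and 9407 CPM (counts-per-million of the library's total on genes) at P1 and 7952 and 5936 CPM at P6 in GFP+ libraries, and 264.3 to 398.0 CPM in the 4 GFP- libraries, with no marker at 0 in any library. P6 GFP+ replicate 2 held more RNA of other cell types than replicate 1, with summed levels of 3515 against 1759 CPM for 7 mesenchyme markers, 168.5 against 40.2 CPM for 4 endothelial markers and 2343 against 1104 CPM for 5 glial markers. The 8 hair cell markers summed to 688.8 and 790.5 CPM in P1 GFP+ and 490.3 and 523.7 CPM in P6 GFP+ libraries. In GFP- libraries they summed to 455.5 and 394.8 CPM at P1 and 340.6 and 381.5 CPM at P6. The hair cell sum was thus higher in GFP+ than in GFP- libraries at each age, and lower at P6 in both fractions. Of its markers, *Atoh1*, *Gfi1* and *Myo7a* followed the sum in both respects, and others did not. *Myo6*, the largest part of each sum, was at 250.2 and 325.1 CPM in P6 GFP+ and 311.6 and 339.6 CPM in P6 GFP- libraries. *Ocm* went from 0.567 and 0.362 CPM at P1 to 86.2 and 34.4 CPM at P6 in GFP+ libraries. The genes below had the same directions as the hair cell sum, and the part of hair cell RNA in their levels was not tested. The sums of mesenchyme, bone, endothelial and glial markers were higher at P6 than at P1 in GFP+ libraries. Mesenchyme markers were at 498 and 444 CPM at P1, below both P6 values, and 3 bone markers went from 0.502 and 0.522 CPM at P1 to 34.9 and 128 CPM at P6. In GFP- libraries the bone markers went from 22.3 and 13.2 CPM to 864.6 and 865.2 CPM. These sums were higher in the same libraries in which the genes below were lower, and their part in those values was not tested. In bulk samples fewer cells of a type and less RNA per cell cannot be told apart.

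What these 7 genes share at the sequence level is a match to the seed of let-7, and the sequences are shown because let-7 is the known regulator of this group. Of 10 mature mouse let-7 sequences listed by RefSeq (GRCm38.p6), 9 had the same seed. The seed, bases 2 to 8 from the 5′ end, is in capitals. Mature let-7a-5p and let-7i-5p share it, and let-7j, whose seed ends in another base, does not.
mmu-let-7a-5p, chr13:48538239-48538260, minus strand: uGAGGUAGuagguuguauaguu
mmu-let-7i-5p, chr10:122985698-122985719, minus strand: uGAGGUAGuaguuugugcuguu
mmu-let-7j, chr3:140028281-140028304, plus strand: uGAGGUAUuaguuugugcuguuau

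The site that pairs with the shared seed is CTACCTC, and it was searched on the mRNA strand of the 3′ UTR of 1 annotated transcript of each gene (NCBIM37). All 7 genes held at least 1 match, while 8.8% of 20007 genes with an annotated 3′ UTR held one. Among genes with a 3′ UTR of similar length the share was larger, from 9.45% for the length of *Hmga1* to 34.5% for that of *Igf2bp1*. The match nearest the stop codon is shown for each gene with its flanks, and the capitals mark the 7 bases that pair with the seed. All 17 matches found in the 7 genes were identical to the genome at the positions given.
Lin28a, chr4:133561093-133561122, minus strand: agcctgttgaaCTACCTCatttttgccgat
Lin28b, chr10:45100817-45100846, minus strand: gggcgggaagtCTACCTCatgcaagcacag
Hmga1, chr17:27700226-27700255, plus strand: ctgttcacaaaCTACCTCtggacggttgtg
Hmga2, chr10:119801269-119801298, minus strand: acattcaatttCTACCTCagcatcagttgg
Igf2bp1, chr11:95823081-95823110, minus strand: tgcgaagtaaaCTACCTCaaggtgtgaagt
Igf2bp2, chr16:22059535-22059564, minus strand: acaaataaaagCTACCTCaggtgtttttta
Igf2bp3, chr6:49036775-49036804, minus strand: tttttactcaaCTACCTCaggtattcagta

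The genes differed in how many matches they held. *Lin28b*, *Hmga2* and *Igf2bp1* each held 4 matches, *Lin28a* held 2, and *Hmga1*, *Igf2bp2* and *Igf2bp3* held 1 each. Because long UTRs hold more matches by length alone, each gene was set beside genes whose 3′ UTR was similar in length. As many matches as in *Lin28b* were found in 0.282% of such genes, as many as in *Hmga2* in 0.141% and as many as in *Igf2bp1* in 0.263%. For *Lin28a* the share was 2.41%, and for *Hmga1*, *Igf2bp2* and *Igf2bp3* it was 9.45%, 13.3% and 14.1%. *Igf2bp1* was the member with the most matches followed by an A, the longer form CTACCTCA, with 3 of its 4. These genes are known as let-7 targets, so the matches are a description of the group and no test of it, and the libraries, made from mRNA, do not measure mature let-7.

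**Figure D1:**
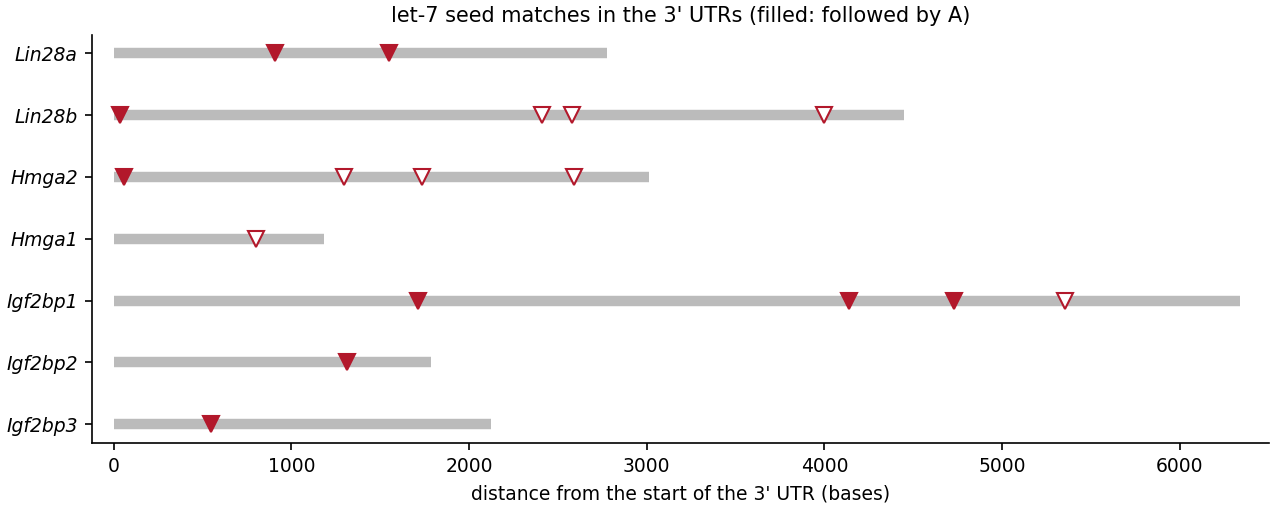
Positions of matches to the let-7 seed in the 3′ UTR of each gene, with the distance from the start of the 3′ UTR in bases on the x axis and a grey bar as long as the UTR. Filled triangles mark matches followed by A, and the UTRs of *Lin28b*, *Hmga2* and *Igf2bp1* hold 4 matches each.

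*Lin28a* was not detectable above the limit of these libraries. It had 2 and 2 counts in P1 GFP+, 1 and 2 in P1 GFP-, 0 and 0 in P6 GFP+ and 1 and 0 in P6 GFP-. Every library was below the 3 counts that a count of 0 allows, which correspond to 0.0443 to 0.169 CPM depending on the library and cover counting error only. *Lin28a* was therefore left out by the filter on low counts, and no fold change is given. The other 6 genes passed the filter in all comparisons.

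*Lin28b*, the paralog that remained expressed, was highest in P1 GFP+ cells. It was at 25.0 and 21.7 CPM in P1 GFP+, 2.88 and 6.93 CPM in P1 GFP-, 6.19 and 5.79 CPM in P6 GFP+ and 0.827 and 0.842 CPM in P6 GFP-. Both P1 GFP+ libraries were above all others and both P6 GFP- libraries were below all others, whereas the P6 GFP+ values lay within the range of the P1 GFP- values. The P1 GFP- replicates were the least alike of any pair for this gene, and replicate 2, the higher one, also had 456.9 against 135.8 summed CPM of 5 neuronal markers and 398.0 against 264.3 summed CPM of the supporting cell markers. The part of these cells in the *Lin28b* level was not tested. The counts behind these values were 51 and 57 in P6 GFP- and 1145 and 539 in P1 GFP+.

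*Hmga2* showed the widest range of the 6 genes between P1 GFP+ and P1 GFP- cells. It was at 65.8 and 61.8 CPM in P1 GFP+, 6.55 and 7.19 CPM in P1 GFP-, 9.62 and 10.7 CPM in P6 GFP+ and 1.90 and 2.14 CPM in P6 GFP-. None of the 4 groups overlapped, and the order from high to low was P1 GFP+, P6 GFP+, P1 GFP- and P6 GFP-. The share of all genes with such a separation was not counted. Between 2 groups alone, 34.5% to 48.9% of all genes tested were separated in 1 direction, depending on the comparison.

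*Hmga1*, the paralog that is expressed more widely in embryonic and dividing cells, changed over a narrower range. It was at 12.1 and 12.1 CPM in P1 GFP+, 7.42 and 5.93 CPM in P1 GFP-, 6.81 and 6.16 CPM in P6 GFP+ and 2.25 and 2.70 CPM in P6 GFP-. The P1 GFP- and P6 GFP+ values overlapped, with P1 GFP+ above them and P6 GFP- below them. The counts of *Hmga1* are uncertain, because reads that align in more than 1 place were not counted to any gene.

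The 3 *Igf2bp* genes had the same highest and lowest groups. *Igf2bp1* was at 50.2 and 51.3 CPM in P1 GFP+, 16.0 and 20.1 CPM in P1 GFP-, 12.6 and 12.6 CPM in P6 GFP+ and 2.72 and 2.79 CPM in P6 GFP-. *Igf2bp3* was at 42.3 and 40.9 CPM in P1 GFP+, 21.9 and 22.8 CPM in P1 GFP-, 15.7 and 15.6 CPM in P6 GFP+ and 5.87 and 5.95 CPM in P6 GFP-. *Igf2bp2*, the paralog known to stay expressed in adult tissues, was at 123.1 and 123.6 CPM in P1 GFP+, 68.5 and 72.4 CPM in P1 GFP-, 80.8 and 90.0 CPM in P6 GFP+ and 39.1 and 42.1 CPM in P6 GFP-. No 2 groups overlapped for any of the 3 genes, and the share of all genes with such a separation was not counted. The middle groups differed in order, with P1 GFP- above P6 GFP+ for *Igf2bp1* and *Igf2bp3* and P6 GFP+ above P1 GFP- for *Igf2bp2*.

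**Figure D2:**
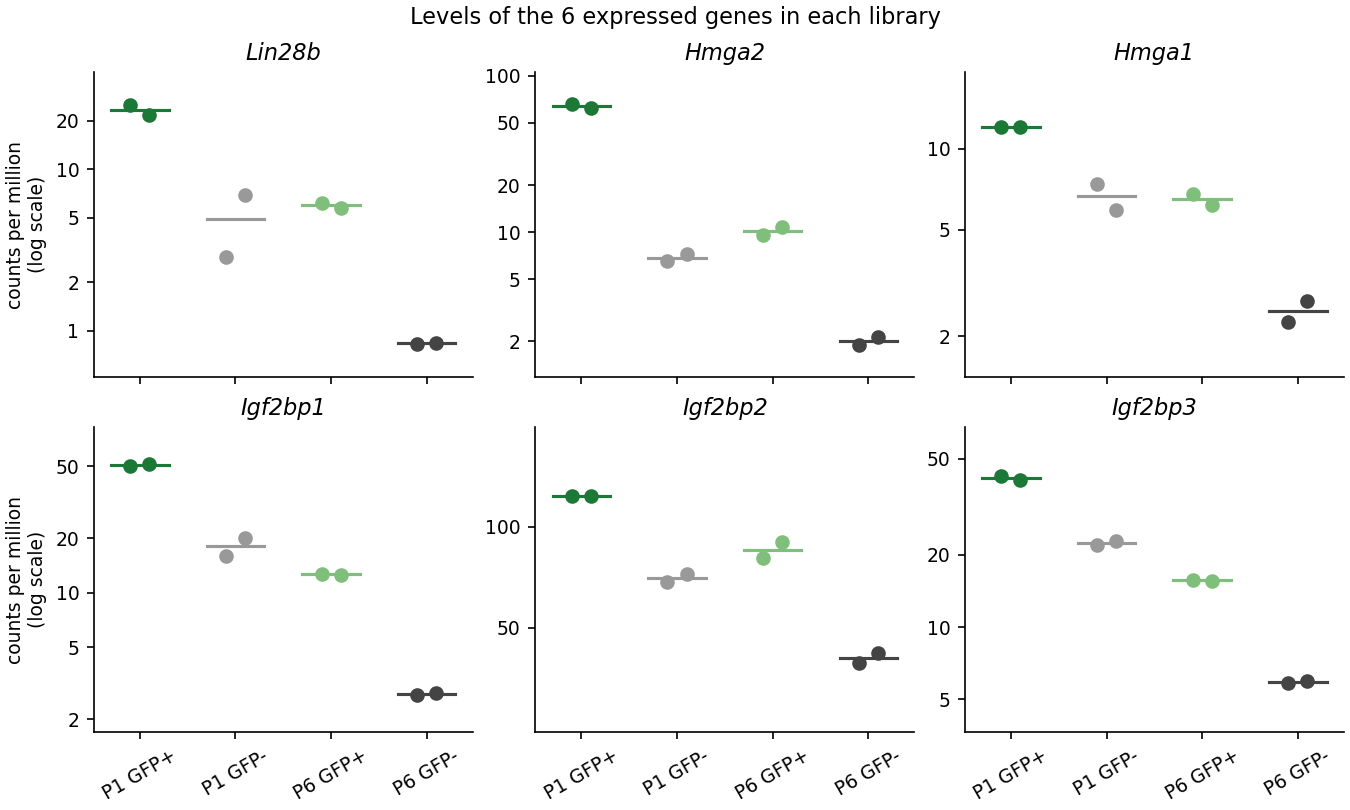
CPM of each gene on a log scale, with 1 point per library, lines at group means and 1 panel per gene. P1 GFP+ was the highest group and P6 GFP- the lowest for all 6 genes, an order whose share over all genes was not counted. The P1 GFP- libraries stand far apart only for *Lin28b*, at 2.88 and 6.93 CPM.

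Levels of different genes were compared per kilobase of exon (RPKM). *Igf2bp2* was the highest of the 7 in every group, at 17.3 ± 0.042 RPKM (SD, n = 2) in P1 GFP+ and 5.70 ± 0.29 RPKM in P6 GFP- cells. In P1 GFP+ cells *Igf2bp3* at 9.58 ± 0.23 RPKM and *Hmga2* at 9.43 ± 0.42 RPKM followed and did not differ beyond their spread, and *Hmga1*, *Igf2bp1* and *Lin28b* came next at 6.07 ± 0.013, 5.24 ± 0.074 and 2.57 ± 0.26 RPKM. In P6 GFP- cells *Igf2bp3* and *Hmga1* could not be told apart at 1.36 ± 0.014 and 1.25 ± 0.16 RPKM. *Hmga2* and *Igf2bp1* were likewise within their spread there, at 0.298 ± 0.026 and 0.285 ± 0.0050 RPKM, and *Lin28b* was at 0.0921 ± 0.0012 RPKM.

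To ask whether the circuit is enriched in supporting cells, GFP+ and GFP- cells were compared at each age with the quasi-likelihood test of edgeR, where a gene was called when p and the Benjamini-Hochberg adjusted p over all genes tested were below 0.01. At P1 all 6 tested genes were called higher in GFP+ cells. Over all 18682 genes tested, 16.6% were called higher in GFP+ cells. *Hmga2* rose the most, its log2 fold change being 3.32 ± 0.12 (SE), about 9.98-fold and rank 509 from the highest of all genes (edgeR adjusted p = 1.40e-05). *Lin28b* was higher by 2.34 ± 0.39 (adjusted p = 0.0037) and *Igf2bp1* by 1.59 ± 0.13 (adjusted p = 0.000219). *Igf2bp3*, *Hmga1* and *Igf2bp2* were higher by 1.00 ± 0.10, 0.96 ± 0.18 and 0.91 ± 0.083. *Hmga2* and *Lin28b* were above 4-fold, against 6.46% of all genes called and above 4-fold in that direction. Both GFP+ libraries were above both GFP- libraries for all 6 genes, as for 34.5% of all genes tested. Without either P1 GFP+ replicate *Lin28b* and *Hmga1* lost the call, with edgeR adjusted p = 0.0136 to 0.0213 for *Lin28b* and 0.0400 to 0.0516 for *Hmga1*, while the genes called over all genes went from 6972 to 3675 and 3716. The size for *Lin28b* depended on the P1 GFP- libraries, at 1.84 without replicate 1 and 3.12 without replicate 2.

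At P6 the same comparison called 5 of the 6 genes higher in GFP+ cells, against 7.72% of the 18294 genes tested. *Lin28b* had the largest log2 fold change, 2.83 ± 0.30 or 7.12-fold (edgeR adjusted p = 0.00271). *Hmga2* was higher by 2.32 ± 0.26 (adjusted p = 0.00314), *Igf2bp1* by 2.18 ± 0.24 (adjusted p = 0.00292), *Igf2bp3* by 1.40 ± 0.21 and *Igf2bp2* by 1.07 ± 0.15. *Hmga1*, at 1.38 ± 0.28, did not pass (adjusted p = 0.0157). *Lin28b*, *Hmga2* and *Igf2bp1* were above 4-fold, against 4.88% of all genes. Both GFP+ libraries were above both GFP- libraries for all 6 genes, as for 35.7% of all genes tested. These calls needed both GFP- libraries: without P6 GFP- replicate 1 or replicate 2, none of the 6 genes was called by edgeR, all 6 had an unadjusted p under 0.05, and the adjusted p values of the 5 genes rose to between 0.0292 and 0.0795. Over all genes, 366 and 0 were then called in place of 2363. The fold changes stayed about as large, at 2.88 and 2.83 for *Lin28b* and 2.30 and 2.40 for *Hmga2*. With the replicate number as a block, 4 genes were called and *Igf2bp3* was not (edgeR adjusted p = 0.0107). DESeq2, run on all 4 libraries, called all 6.

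As a share of the GFP+ level, the GFP- level of most of these genes was higher than that of the supporting cell markers. In P1 GFP- cells *Hmga2* was at 10.8% of its GFP+ level, *Lin28b* at 21.0%, *Igf2bp1* at 35.6% and *Igf2bp3*, *Hmga1* and *Igf2bp2* at 53.6%, 55.3% and 57.1%. The supporting cell markers were between 0.344% for *Hes5*, a Notch target, and 12.7% for *Cdkn1b*, a cell cycle inhibitor. In P6 GFP- cells the shares were 13.9% for *Lin28b*, 19.9% for *Hmga2* and 21.9% to 47.6% for the other 4 genes, against 0.568% to 17.8% for the markers. *Hmga2* at P1 and *Lin28b* at P6 thus lay within the range of the markers. The levels themselves did not follow these shares. In P6 GFP- cells *Lin28b* was at 0.827 and 0.842 CPM, against 45.8 and 28.5 CPM for *Lfng* and 0.130 and 0.0886 CPM for *Hes5*.

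The decline with age was then measured within each fraction. In GFP+ cells 4 of the 6 genes were called lower at P6 than at P1, against 1.95% of 17213 genes tested. *Hmga2* fell by 2.56 on the log2 scale with an SE of 0.14, about 5.89-fold and rank 211 from the lowest of all genes (edgeR adjusted p = 0.0023). *Igf2bp1* fell by 1.92 with an SE of 0.13 (adjusted p = 0.00279), *Lin28b* fell by 1.87 with an SE of 0.19 (adjusted p = 0.00581) and *Igf2bp3* fell by 1.32 with an SE of 0.14 (adjusted p = 0.00605). *Hmga1* and *Igf2bp2*, with log2 fold changes of -0.81 ± 0.20 and -0.44 ± 0.11, did not pass (adjusted p = 0.0484 and 0.0499). *Hmga2* was above 4-fold, as were 0.93% of all genes in that direction. Both P1 libraries were above both P6 libraries for all 6 genes, as for 41.1% of all genes tested. The 4 calls became 2 without P1 GFP+ replicate 1 (*Hmga2* and *Igf2bp1*) and 1 without P1 GFP+ replicate 2 (*Hmga2*). Over all genes, 770 and 137 were then called in place of 828. All 6 genes were called without P6 GFP+ replicate 1, and likewise without replicate 2, where 6404 and 7531 of all genes were called.

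GFP- cells also showed a decline. In this fraction 4 of the 6 genes were called lower at P6, against 2.34% of 18920 genes tested, and *Hmga2*, *Igf2bp1* and *Igf2bp3* were called in both fractions. *Igf2bp1* fell by 2.52 with an SE of 0.20, about 5.74-fold and rank 148 from the lowest (edgeR adjusted p = 0.000685). *Igf2bp3* fell by 1.73 with an SE of 0.15 (adjusted p = 0.00093), *Hmga2* fell by 1.58 with an SE of 0.23 (adjusted p = 0.00517) and *Igf2bp2* fell by 0.60 with an SE of 0.10 (adjusted p = 0.00983). *Lin28b* had a log2 fold change of -2.37 ± 0.45 and *Hmga1* of -1.24 ± 0.24, and neither passed (adjusted p = 0.013 and 0.0155). *Igf2bp1* was above 4-fold, as were 0.418% of all genes in that direction. Both P1 libraries were above both P6 libraries for all 6 genes, as for 48.9% of all genes tested. Only *Igf2bp1* was called without P6 GFP- replicate 1, and likewise without replicate 2, while all 6 genes were called without either P1 GFP- replicate. Over all genes, 249 and 368 were called without the P6 GFP- libraries in turn and 2931 and 3029 without the P1 GFP- libraries, in place of 1397. With the replicate number as a block, 2 genes were called, *Igf2bp1* and *Igf2bp3*.

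**Figure D3:**
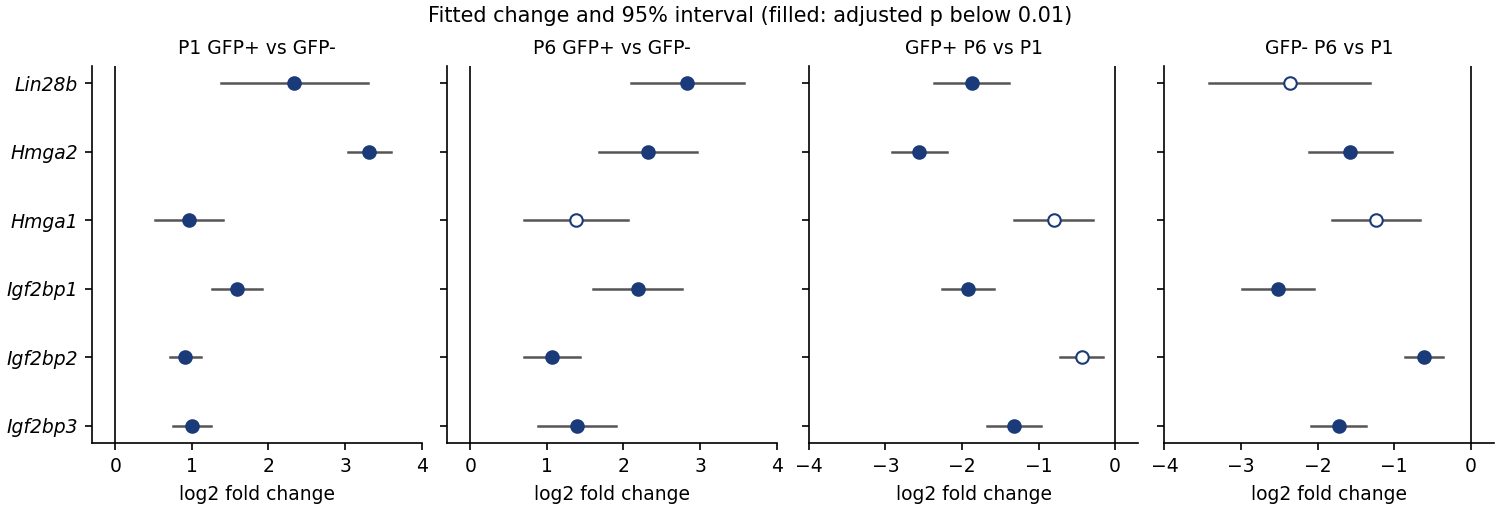
Fitted log2 fold change of each gene in the 4 comparisons, with points at the estimate, lines for the 95% interval and filled points for an edgeR adjusted p below 0.01. All estimates lie above 0 between fractions and below 0 with age, and the 5 open points are *Hmga1* in 3 comparisons, *Igf2bp2* in GFP+ cells and *Lin28b* in GFP- cells.

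Whether the ratio of GFP+ to GFP- cells differed between the ages was tested as an interaction over all 8 libraries, coded as the log2 ratio at P1 less that at P6. None of the 6 genes was called by edgeR, against 1.93% of 19233 genes tested in either direction. At an unadjusted p under 0.05 there were 2, *Hmga2* and *Igf2bp1*, and DESeq2 called 1, *Hmga2*. *Hmga2* had a difference of 1.01 ± 0.21 with a 95% interval from 0.53 to 1.48, its ratio being larger at P1 (edgeR adjusted p = 0.0287, DESeq2 adjusted p = 0.00502). *Igf2bp1* had a difference of -0.58 ± 0.22, its ratio being larger at P6 (edgeR adjusted p = 0.179). For *Lin28b* the interval ran from -1.69 to 0.73, so these libraries do not resolve a change of its ratio. The intervals were -1.10 to 0.28 for *Hmga1*, -0.49 to 0.21 for *Igf2bp2* and -0.81 to 0.047 for *Igf2bp3*.

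Among 13598 genes with at least 5 CPM in a group, the genes whose pattern over the 8 libraries was most like that of *Hmga2* were ENSMUSG00000078720, *Ttc21a*, *Fam70b*, *Zmat4* and *Atoh1*, the transcription factor that specifies hair cells. Likeness was the root mean square difference of log2(CPM + 0.5) about each gene's mean, and it was 0.268 to 0.307 for these 5. *Atoh1* had means of 8.55 and 0.370 CPM in P1 GFP+ and GFP- cells and 0.941 and 0.0081 CPM at P6. Its GFP- means lay below the 0.5 added, which narrows its differences in this measure. *Hmga2* was at 63.8, 6.87, 10.2 and 2.02 CPM in the same order. *Lin28b* stood at rank 16 in this list and *Igf2bp1* at rank 63. The 5 genes most like *Lin28b* were *Slc35f3*, *Ano9*, ENSMUSG00000078720, *BC007180* and *Zmat4*, at 0.247 to 0.377, with *Igf2bp1* at rank 9 and *Hmga2* at rank 14. *Igf2bp2* was the member least like either, at ranks 752 and 583.

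Of the genes that act on let-7 itself, edgeR called 1 higher and 1 lower in GFP+ cells at P1, against 16.6% and 20.7% of all genes. None was called between fractions at P6 or with age, where 1.95% to 7.72% of all genes were called in each direction. The list held 17 factors of microRNA processing and of let-7 tailing and decay, such as *Drosha*, *Dicer1*, *Dis3l2* and *Zcchc11*, which can tail the let-7 precursor. At P1 *Eif2c1* (Argonaute 1) was higher in GFP+ cells by 1.25 ± 0.094 (edgeR adjusted p = 0.000147), and *Prkra*, a Dicer partner, fell by 0.58 with an SE of 0.10 relative to GFP- cells (adjusted p = 0.00438), a call that was lost without either P1 GFP+ replicate. No factor was called by edgeR with age, and at an unadjusted p under 0.05 there were 7 lower at P6 in GFP+ cells and 3 in GFP- cells. DESeq2 called 1 lower in each fraction. In GFP+ cells 2 of the 17 were called lower without P6 GFP+ replicate 1 and 10 without replicate 2. *Dicer1*, which is itself a let-7 target, was at 189.8 ± 3.3 CPM in P1 GFP+ and 117.5 ± 28.3 CPM in P6 GFP+ cells. Of 14 let-7 precursor genes and host genes listed, 11 were in the files. The 9 precursor genes were barely counted, with group means of 0 to 0.589 CPM. The host genes were well counted, *Huwe1* at group means of 464.3 to 878.1 CPM and *2610203C20Rik* at 14.6 to 41.0 CPM. Between 3 and 5 of the list were tested, and edgeR called none in any comparison, with at most 1 at an unadjusted p under 0.05 in each direction. Over all genes, 0.946% to 20.7% were called in each direction, depending on the comparison. DESeq2 called 1 higher in GFP+ cells at P1, 1 higher at P6 and 1 lower with age in GFP- cells, and the replicate block called 1 higher at P6. *2610203C20Rik* had log2 fold changes of 0.50 ± 0.12 at P1 and 1.26 ± 0.24 at P6 between fractions (edgeR adjusted p = 0.0155 and 0.0142).

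Other mRNAs known as let-7 targets were called in both directions. Of 22 listed, 10 were called higher and 5 lower in GFP+ cells at P1, where 16.6% and 20.7% of all genes were. Those that were higher included *Thbs1*, a secreted matrix protein (log2 fold change 3.48 ± 0.15, edgeR adjusted p = 2.48e-05), *Trim71*, an RNA-binding ubiquitin ligase of early development (3.17 ± 0.28, adjusted p = 0.000287), *Tgfbr1*, a TGF-beta receptor (2.50 ± 0.12), and *Mycn* (2.05 ± 0.15). Those that were lower included the cell cycle genes *Ccnd2*, *Myc* and *Cdk6*, at -4.75 ± 0.14, -4.41 ± 0.21 and -1.26 ± 0.24. Without P1 GFP+ replicate 1 and replicate 2, 7 and 6 were called higher and 3 lower each time, and *Cdk6* was not called. With age, 2 of the 22 were called lower in GFP+ cells, *Thbs1*, which fell by 2.38 with an SE of 0.22, and *Tgfbr1*, which fell by 1.92 with an SE of 0.14, and neither was called without P1 GFP+ replicate 2. This count rose when a P6 GFP+ library was left out, to 5 higher and 10 lower without replicate 1 and 5 higher and 12 lower without replicate 2, as it did over all genes. DESeq2 called 2 higher and 7 lower. Over all genes, edgeR called 2.86% higher and 1.95% lower with age in GFP+ cells. *Trim71* went from 4.64 ± 0.26 to 1.40 ± 0.63 CPM in GFP+ cells without passing the test (log2 fold change -1.62 ± 0.38, adjusted p = 0.0399), while *Mycn* was at 56.3 ± 11.6 and 56.2 ± 9.3 CPM. The median log2 change with age was -0.53 for the 22 genes in GFP+ cells and -0.039 in GFP- cells, against -1.60 and -1.65 for the 6 genes and -0.0024 and -0.023 for all genes. The median of the 22 in GFP+ cells was -0.21 without P6 GFP+ replicate 1.

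The RNAs that Igf2bp proteins are known to bind went both ways. Of 9 listed, 3 were called higher in P1 GFP+ cells (*Cd44*, *Btrc* and *Lamb2*) and 3 lower, against 16.6% and 20.7% of all genes, and only *Cd44* of the higher ones was called without either P1 GFP+ replicate. The lower ones were the growth factor gene *Igf2* at -4.41 ± 0.16, the imprinted noncoding RNA *H19* at -4.34 ± 0.24 and *Myc*, and the same 3 were called lower at P6, at -3.57 ± 0.56, -3.23 ± 0.49 and -2.23 ± 0.25, against 5.19% of all genes. None of the 3 was called at P6 without either P6 GFP- replicate, and *Igf2* and *H19* were not called there when libraries were scaled by their totals. *Igf2* was at 39.9 ± 3.5 CPM in P1 GFP+ and 916.1 ± 125.8 CPM in P1 GFP- cells. None of the 9 was called by edgeR with age in GFP+ cells, against 2.86% of all genes called higher and 1.95% lower. DESeq2 called 3 higher and 1 lower. Without P6 GFP+ replicate 1, 3 were called higher and 1 lower, and without replicate 2, 3 higher and 3 lower. In GFP- cells, where 5.04% of all genes were called higher with age, *Igf2* and *Mapk4* rose by 1.12 ± 0.17 and 1.06 ± 0.17. Neither was called when libraries were scaled by their totals, in 1 fit of all libraries or without either P6 GFP- replicate, and *Mapk4* was not called with the replicate block.

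Of 5 genes that Hmga2 is known to act on, 4 were tested. At P1, where *Hmga2* was highest in GFP+ cells, 3 of the 4 were called lower in GFP+ cells, against 20.7% of all genes. These were the cyclin genes *Ccnb2* at -4.02 ± 0.19 and *Ccna2* at -2.61 ± 0.15, which are also in the proliferation list below, and *Junb*, a subunit of AP-1, at -0.92 ± 0.17, which was not called without either P1 GFP+ replicate or in 1 fit of all libraries. With age in GFP- cells *Ccnb2* and *Ccna2* were called lower, with log2 fold changes of -1.60 ± 0.20 and -1.56 ± 0.16, and neither was called without either P6 GFP- replicate. *Junb* rose with age in GFP+ cells by 2.00 ± 0.14 (edgeR adjusted p = 0.00286), a call lost without P1 GFP+ replicate 2. In GFP- cells it rose by 1.55 ± 0.22 (adjusted p = 0.00505), a call lost without P6 GFP- replicate 1 and when libraries were scaled by their totals. Over all genes, 2.34% were called lower and 5.04% higher with age in GFP- cells, and 2.86% higher in GFP+ cells. *Cdkn2b*, the other gene tested, was not called in any comparison. Its log2 fold change was -1.96 ± 0.48 between fractions at P6 and 2.01 ± 0.51 with age in GFP- cells (edgeR adjusted p = 0.0288 and 0.0361). *Cdkn2a*, the cell cycle inhibitor that Hmga2 holds down in stem cells, was at 0 to 0.0449 CPM in the group means and was not tested.

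Of 9 other HMG genes, 1 was called higher and 2 lower in GFP+ cells at P1, against 16.6% and 20.7% of all genes. None was called by edgeR with age in GFP+ cells, against 2.86% of all genes called higher and 1.95% lower. At an unadjusted p under 0.05 there were 1 higher and 4 lower, and DESeq2 called 2 lower. Without P6 GFP+ replicate 1, 1 was called higher and 5 lower, and without replicate 2, 1 higher and 4 lower. In GFP- cells 2.34% of all genes were called lower with age and 5.04% higher. There *Hmgb2* fell by 1.42 with an SE of 0.15 and *Hmgb3* fell by 0.90 with an SE of 0.12, and *Hmgn3* rose by 0.71 ± 0.11. None of these 3 was called without either P6 GFP- replicate, and *Hmgn3* was also not called when libraries were scaled by their totals, in 1 fit of all libraries or with the replicate block.

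Proliferation genes were listed because Lin28b and Hmga2 are known to promote division. At P1, where all 6 were higher in GFP+ cells, 15 of 16 proliferation genes were called lower in GFP+ cells, against 20.7% of all genes. Their median log2 fold change was -2.81, and *Mki67* was at 9.17 ± 0.32 CPM in GFP+ and 183.6 ± 24.4 CPM in GFP- cells. With age, 2.86% of all genes were called higher and 1.95% lower in GFP+ cells, and 2.34% lower in GFP- cells. In GFP+ cells, where 4 of the 6 genes fell with age, none of the 16 was called by edgeR, 1 was higher and 1 lower at an unadjusted p under 0.05, and DESeq2 called 1 lower. The median was 0.089, and it was 0.42 without P6 GFP+ replicate 1 and -0.46 without replicate 2, which changes its sign. In GFP- cells 15 of the 16 were called lower at P6, with a median of -1.50, and 4 and 3 were called without P6 GFP- replicate 1 and replicate 2.

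**Figure D4:**
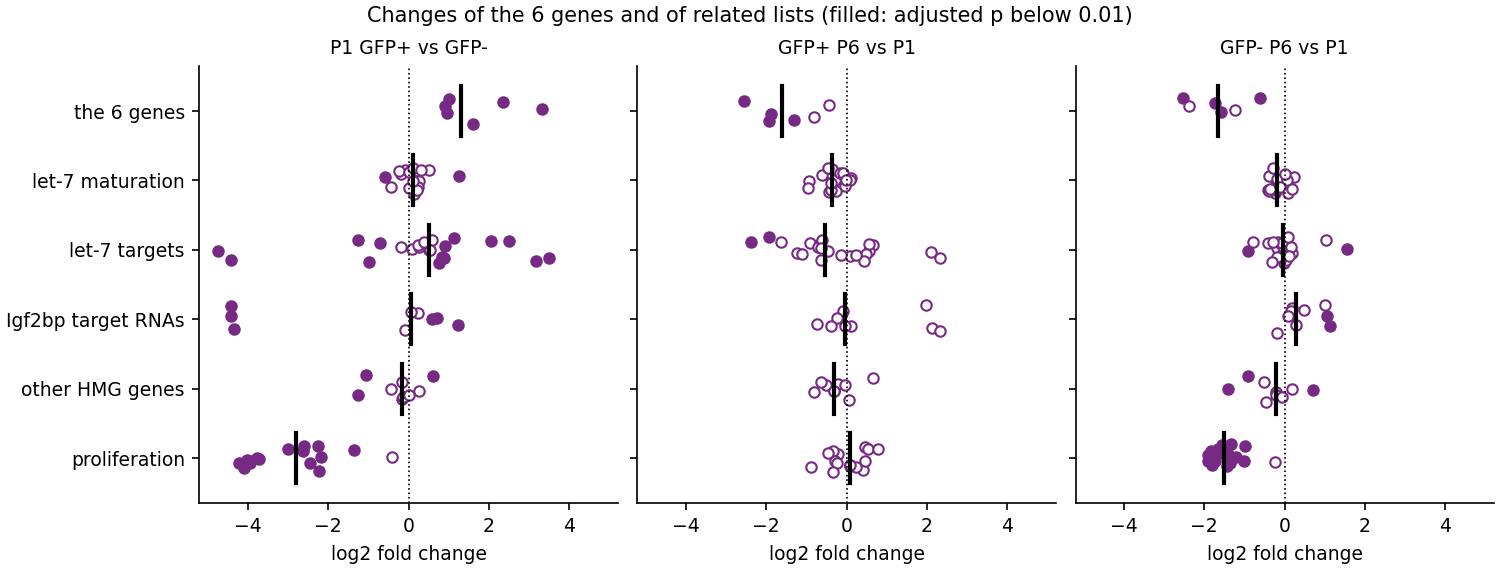
Log2 fold changes of the 6 genes and of listed genes in 3 comparisons, with 1 point per gene, black bars at list medians and filled points for an edgeR adjusted p below 0.01. In the middle panel the 6 genes have a median of -1.60 and the proliferation genes of 0.089.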

How the data were processed

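RNA-seq was used from 8 libraries of sorted cochlear cells, with groups taken from each label's age and fraction. The authors deposited unnormalized read counts for each Ensembl gene, made by aligning paired reads to mm9 (NCBIM37) with TopHat 1.4.0 and counting with HTSeq, per the submitters' processing notes, and the counting mode and strand setting are not given in the sources used here. The rows naming no gene held 23.8% to 35.3% of each library and were left out. RPKM used the summed exon length of the NCBIM37 annotation, which held 34391 of 36536 genes.

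Each comparison was fitted on its 4 libraries, and the interaction on 8, in R 4.3.3 with edgeR 4.0.16 (filterByExpr with a minimum count of 10 and minimum total of 15, TMM, quasi-likelihood test, Benjamini-Hochberg adjustment). The SE is the log2 fold change divided by the square root of F. Alternatives were DESeq2 1.42.0, other scalings, no filter, 1 fit of all libraries, a replicate block and leaving out each library. The procedure was tested on simulated counts. Matches to the seed were counted in Python 3.11.15, in the protein-coding transcript with the longest 3′ UTR.

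The genes, lists and tests were chosen with earlier results of these data known. The text names the 7 genes, up to 4 called genes per list by size of change with others that a sentence needs, and the 5 genes most like *Hmga2* and *Lin28b*. One item that bears on the counts of *Hmga1* is not reported here.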

Additional observations from a re-analysis of the deposited data

Results flagged for a closer look

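By the interaction test of edgeR over 8 libraries, 2 of the 22 other let-7 targets were called, against 1.93% of all genes. Their ratio of GFP+ to GFP- cells differed between the ages. For *Thbs1* the log2 ratio at P1 less that at P6 was 3.95 ± 0.32 (adjusted p = 0.000928), with 1256 ± 67 and 120.8 ± 18.0 CPM in P1 GFP+ and GFP- cells and 226.9 ± 59.6 and 308.6 ± 47.9 CPM at P6. For *Tgfbr1* it was 2.04 ± 0.19 (adjusted p = 0.00137), with 705.4 ± 36.4 and 133.7 ± 9.6 CPM at P1 and 174.4 ± 0.60 and 124.9 ± 0.21 CPM at P6. *Thbs1* was called under all 13 alternatives, and *Tgfbr1* under 8, being lost without either P1 GFP+ replicate, either P6 GFP- replicate or P1 GFP- replicate 2.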

How the results depend on the processing

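Other scalings, DESeq2, no filter, 1 fit of all libraries, the replicate block and leaving out single libraries were applied to the 6 genes. Of 144 fold changes with 1 library left out, 108 kept direction and side of the threshold, 25 lost a call, 10 gained one and 1 changed sign; of 186 others, 171 kept both, 4 lost a call and 11 gained one. The sign change was the interaction of *Lin28b*, 0.22 without P1 GFP- replicate 2 against -0.48, with a range of -0.998 to 0.219 over single libraries left out. With 1 library left out, genes called ranged from 4 to 6 between fractions at P1, from 0 to 6 at P6, from 1 to 6 with age in GFP+ cells and from 1 to 6 in GFP- cells; the lone library left in a group is assumed to vary like the others. The replicate block called 2 genes with age in GFP- cells in place of 4 and 4 at P6 in place of 5, and replicate numbers share only a number: replicate differences of same-numbered libraries correlated at 0.036 and 0.059 between fractions and at -0.16 and -0.33 between ages. A crossed pairing, added after seeing the data, called 4 with age in GFP+ and 6 in GFP- cells. DESeq2 called 1 gene in the interaction in place of 0. Over all genes, DESeq2 called 4891 in place of 2363 at P6, 3037 in place of 828 with age in GFP+ cells, 3050 in place of 1397 in GFP- cells and 1439 in place of 372 in the interaction; the replicate block called 151 there. Scaling by library totals moved the median of all genes from -0.023 to -0.21 with age in GFP- cells and the share of calls that were higher from 68.3% to 49.5%, from 59.8% to 71.4% at P6 and from 51.1% to 39.8% in the interaction, and left the number of the 6 genes called unchanged in all 5 comparisons. Of 85 calls of listed genes, 34 held under all alternatives run and 0 changed sign. The causes were not tested. With 51 and 57 counts in P6 GFP- cells, depth limits *Lin28b* there.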

Other observations

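Over all genes, the median change with age was lower the more let-7 seed matches the 3′ UTR held, which is a description chosen after the data were seen and carries no test. In GFP+ cells the median log2 fold change at P6 against P1 was 0.049 for genes with 0 matches, -0.041 with 1, -0.11 with 2 and -0.44 for the 24 genes with 3 or more. In GFP- cells the medians were 0.018, -0.0062, -0.039 and -0.35. The share of genes called lower did not follow this order. In GFP+ cells it was 2.02%, 2.93% and 1.28% with 0, 1 and 2 matches, and 16.7% in the last class. In GFP- cells it was 2.77%, 2.82%, 0.617% and 8%. Without *Lin28b*, *Hmga2* and *Igf2bp1* the medians of the last class were -0.32 over 21 genes in GFP+ cells and -0.27 over 22 genes in GFP- cells. Of these remaining genes, 4.76% were called lower in GFP+ cells and 0% in GFP- cells, against 1.95% and 2.34% of all genes tested. Among these, chosen after their values were seen, *Slc22a23* fell by 1.28 in GFP+ cells with an SE of 0.13 (edgeR adjusted p = 0.00587) and *Trim67* rose by 2.68 ± 0.32 (adjusted p = 0.00767). In GFP- cells *Trim67* had a log2 fold change of -2.37 ± 0.56 and was not called (edgeR adjusted p = 0.0296). *Ptafr* rose there by 1.74 ± 0.25 and was called (edgeR adjusted p = 0.00492). Genes with more matches also had longer 3′ UTRs. Among genes whose 3′ UTR had at least 1500 bases, the medians in GFP+ cells were -0.0052, -0.079, -0.13 and -0.40 in the same order. In GFP- cells they were 0.025, -0.026, -0.0081 and -0.37, so the median with 2 matches was not below that with 1.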
